A study of Mus musculus with 8 samples.

Results

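The genes raised mainly by estradiol, 8 in all, were examined in the 7438 line, mouse mammary cells that carry a green fluorescent glucocorticoid receptor (GFP-GR) and a Cherry-tagged estrogen receptor (Cherry-ER), both under a tetracycline-regulated promoter. The 8 genes, of 18193 named genes on the array, were chosen from these same arrays for a level that was higher with estradiol beyond any effect of dexamethasone: Zfp52, Tmem86a, Ttpa, Bnc1, Micall1, Celsr1, Midn and Synpo. They are read by 10 of the 45101 probe sets, 2 each for Zfp52 and Synpo and 1 for each of the other genes. The choice used their estradiol and dexamethasone differences, so those differences are given as a description with standard errors and without p-values. P-values and calls from a fit over all genes are given for genes outside the set. For the members they are given only for the interaction of the hormones, on which the choice also bears. Shares of all genes called include the members, and this is said where it fixes a count.

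The groups were 2 arrays of cells given 100 nM dexamethasone plus 100 nM estradiol (Dex+E2), 2 given 100 nM estradiol (E2), 2 given 100 nM dexamethasone (Dex) and 2 left untreated (Untreated), with RNA taken after 2 hours. All groups shared the 48 hours in hormone-depleted serum and the 24 hours without tetracycline that switch on both receptors, so Untreated cells carried them too. The design asks how a synthetic glucocorticoid and an estrogen act when they are given together. The labels call the arrays replicates but name no separate cultures, so errors and p-values cover the scatter of these arrays alone, and that scatter may be technical.

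Estradiol enters cells and binds the estrogen receptor, a transcription factor that then acts at DNA elements built of paired GGTCA motifs or through other bound factors. Dexamethasone acts likewise through the glucocorticoid receptor. The chosen genes share no pathway. Zfp52 encodes a zinc finger protein with a KRAB domain, a family that mostly silences transcription, and Bnc1 encodes basonuclin 1, a zinc finger factor of keratinocytes and germ cells. Tmem86a is an enzyme of ether lipid breakdown and Ttpa the alpha-tocopherol transfer protein that carries vitamin E. Celsr1 is a cadherin of planar cell polarity, Micall1 an adaptor on recycling endosomes and Synpo, synaptopodin, an actin-binding protein best known in kidney podocytes and dendritic spines. Midn, midnolin, carries nuclear proteins to the proteasome.

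Promoter windows of 300 bases, from 250 before to 50 after a start site listed for a gene, were taken from RefSeq (build GRCm38.p6) because the members moved together. The windows of Zfp52, Micall1 and Midn lie inside the full span of the gene, not at its outer end. Windows were held for 5 members, 6 windows in all, since Midn has 2. The 3 members with the largest E2 differences among these 5 and the Midn window that holds a GGTCA motif are shown 5′ to 3′ on the gene's strand, as chr17:21535289-21535588 (+) for Zfp52, chr7:47050390-47050689 (+) for Tmem86a, chr7:81992250-81992549 (-) for Bnc1 and chr10:80148022-80148321 (+) for Midn. Capitals mark GGTCA motifs and GC boxes on either strand.
Zfp52: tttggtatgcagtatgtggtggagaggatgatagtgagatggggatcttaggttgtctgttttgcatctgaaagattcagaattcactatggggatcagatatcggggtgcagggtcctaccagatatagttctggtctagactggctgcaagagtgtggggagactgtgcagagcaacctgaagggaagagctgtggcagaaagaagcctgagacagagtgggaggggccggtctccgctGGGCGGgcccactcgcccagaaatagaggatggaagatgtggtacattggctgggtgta
Tmem86a: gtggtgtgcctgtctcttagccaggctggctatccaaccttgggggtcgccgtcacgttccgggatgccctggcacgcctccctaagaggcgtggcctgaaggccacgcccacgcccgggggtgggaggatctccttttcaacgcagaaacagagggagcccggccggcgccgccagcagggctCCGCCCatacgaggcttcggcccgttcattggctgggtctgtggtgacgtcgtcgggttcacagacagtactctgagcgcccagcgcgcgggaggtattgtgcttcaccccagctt
Bnc1: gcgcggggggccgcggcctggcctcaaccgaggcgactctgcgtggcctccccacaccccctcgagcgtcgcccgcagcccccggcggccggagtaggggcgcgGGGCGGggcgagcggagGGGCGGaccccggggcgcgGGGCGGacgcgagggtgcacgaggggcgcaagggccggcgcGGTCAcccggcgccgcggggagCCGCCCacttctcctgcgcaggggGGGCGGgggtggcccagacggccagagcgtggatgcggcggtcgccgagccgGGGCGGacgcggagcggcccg
Midn: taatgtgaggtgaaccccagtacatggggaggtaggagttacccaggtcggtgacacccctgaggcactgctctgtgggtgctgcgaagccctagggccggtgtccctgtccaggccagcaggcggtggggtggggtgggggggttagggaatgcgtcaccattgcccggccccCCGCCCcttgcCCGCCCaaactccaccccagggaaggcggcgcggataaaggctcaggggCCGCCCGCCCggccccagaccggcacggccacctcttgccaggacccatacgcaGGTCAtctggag

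The full estrogen element, GGTCA and TGACC with any 3 bases between them, was in 0 of the 6 windows, against 0.07% of 32851 promoter windows of all genes. The single motif GGTCA was in 2 windows, 69 bases before the start site used for Bnc1 and 38 bases after that of the Midn window shown, and 40.5% of all windows hold it. The glucocorticoid element, GNACA and TGTNC with any 3 bases between them and N for any base (0.475% of all windows), the AP-1 site TGANTCA (7.81%) and the TATA box TATAAA (13.6%) were each in 0 of the 6. The GC box GGGCGG was in 6 of 6, against 35.7% of all windows. Both strands were searched, and a full estrogen element would contain the single motif. The GC content was 52.3% for Zfp52, 66.0% for Tmem86a, 83.3% for Bnc1, 77.3% for Micall1 and 68.3% and 61.7% for the windows of Midn, against a median of 52.7% over all windows, and the part of base composition in the GC box count was not tested. These letters describe only these windows and say nothing of binding elsewhere.

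Arrays E2 replicate 2 and Dex+E2 replicate 1 carry a description of a receptor ChIP experiment that goes against their titles and treatment labels, and the Dex+E2 arrays differed most from each other. Genes differing by over 0.5 log2 units between replicates numbered 390 for Dex+E2, 95 for E2, 19 for Dex and 56 for Untreated. As percentiles of gene level, the 6 mesenchymal markers ran from 38.9 (Col1a1) to 99.9 (Vim and Col1a2), with a median of 86.0. The 6 luminal epithelial markers ran from 2.14 (Cdh1) to 52.3 (Epcam), with a median of 33.7, and the 5 basal ones from 13.1 (Krt17) to 64.7 (Krt14), with a median of 45.1. The cells are labelled mammary, and the cadherin gene Cdh1 and the keratin gene Krt18 (17.1) were dim while Epcam and Krt8 (40.8) were near the middle. The immune markers ran from 8.98 (Ptprc) to 59.0 (Cd14), the endothelial from 9.33 (Pecam1) to 48.0 (Kdr), the adipose from 5.11 (Adipoq) to 41.1 (Pparg) and the milk protein genes from 12.4 (Csn2) to 48.3 (Csn3). Over 7 marker lists for epithelial, milk, mesenchymal, immune, endothelial and adipose genes, 0 of 33 measured genes passed the threshold of 0.05 for the mean E2 effect, the average of E2 against Untreated and Dex+E2 against Dex (limma, Benjamini-Hochberg adjusted), with 2 at an unadjusted p under 0.05. The luminal list averaged 5.14 to 5.30 log2 units over the 8 arrays and the mesenchymal list 10.26 to 10.49. In bulk RNA, more cells of a type and more RNA per cell cannot be told apart.

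The zinc finger gene Zfp52 had the highest E2 difference of the 8 members. Its brighter probe set (1426471_at) read 8.93 and 8.96 on the log2 scale in Dex+E2, 9.11 and 9.54 in E2, 7.72 and 7.75 in Dex, and 7.37 and 7.52 in Untreated cells. All arrays with estradiol lay above all arrays without it, and the 4 groups did not overlap, in the order E2, Dex+E2, Dex, Untreated. The difference was 1.88 ± 0.129 log2 units for E2 against Untreated (3.68-fold, SE from limma) and 1.21 ± 0.129 for Dex+E2 against Dex (2.31-fold). The dimmer probe set (1426472_at), at percentile 32.9 of mean level, read 5.23 and 5.14 in Dex+E2, 5.49 and 5.64 in E2, 4.04 and 4.18 in Dex, and 4.06 and 4.22 in Untreated cells. It kept the order of E2 above Dex+E2 above the rest, but its Dex and Untreated arrays overlapped. Its differences were 1.42 ± 0.0992 for E2 against Untreated and 1.08 ± 0.0992 for Dex+E2 against Dex.

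Bnc1, the other transcription factor, was the member in which Dex opposed estradiol most. It read 6.88 and 7.01 in Dex+E2, 7.42 and 7.79 in E2, 6.02 and 5.97 in Dex, and 6.50 and 6.77 in Untreated cells. No groups overlapped, with E2 highest, Dex+E2 next, then Untreated and Dex lowest. Estradiol went with a gain of nearly the same size in both settings, 0.97 ± 0.133 for E2 against Untreated and 0.95 ± 0.133 for Dex+E2 against Dex. Dex went with a loss of the same order, -0.64 ± 0.133 for Dex against Untreated and -0.66 ± 0.133 for Dex+E2 against E2. The Dex+E2 level was therefore only 0.31 ± 0.133 above Untreated, with the 4 arrays not overlapping.

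The ether lipid enzyme gene Tmem86a had the highest difference for Dex+E2 against Dex among all 18193 genes. It read 8.89 and 9.50 in Dex+E2, 9.49 and 9.83 in E2, 7.39 and 7.56 in Dex, and 7.95 and 7.95 in Untreated cells. The Dex+E2 and E2 arrays overlapped, and Dex lay below Untreated on both arrays. The estradiol difference was 1.71 ± 0.178 without Dex (E2 against Untreated) and 1.72 ± 0.178 with it (Dex+E2 against Dex, 3.30-fold). Dex against Untreated was -0.47 ± 0.178 and Dex+E2 against E2 was -0.46 ± 0.178.

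The vitamin E carrier gene Ttpa had the widest replicate gap. It read 7.92 and 8.55 in Dex+E2, 8.15 and 8.99 in E2, 6.95 and 7.0 in Dex, and 6.78 and 6.94 in Untreated cells. Both estradiol groups lay above both others, the Dex+E2 and E2 arrays overlapped, and Dex lay just above Untreated, a difference of 0.11 ± 0.247 that is below its error. E2 against Untreated was 1.71 ± 0.247 and Dex+E2 against Dex 1.26 ± 0.247. Without E2 replicate 2 E2 against Untreated was 1.29, and without E2 replicate 1 it was 2.13.

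Celsr1, the polarity cadherin gene, was the single member whose lead probe set was higher with both hormones than with estradiol alone. It read 5.22 and 5.59 in Dex+E2, 4.88 and 5.33 in E2, 4.20 and 4.19 in Dex, and 4.29 and 4.36 in Untreated cells. The Dex+E2 and E2 arrays overlapped, so that order is not beyond their spread. Dex+E2 against Dex was 1.21 ± 0.153 and E2 against Untreated 0.78 ± 0.153. The probe set is dim, at percentile 33.0 of mean level, where this normalization compresses differences.

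Micall1, the endosome adaptor gene, gave the smallest estradiol difference of the lead probe sets. It read 8.71 and 8.76 in Dex+E2, 8.96 and 9.02 in E2, 8.55 and 8.59 in Dex, and 8.46 and 8.28 in Untreated cells. The groups did not overlap, in the order E2, Dex+E2, Dex, Untreated. The difference was 0.62 ± 0.0914 for E2 against Untreated and 0.16 ± 0.0914 for Dex+E2 against Dex (1.12-fold). It ranked 49 of 18193 genes in size for E2 against Untreated and 1404 for Dex+E2 against Dex.

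The 2 probe sets of Synpo, the synaptopodin gene, did not run alike. The brighter (1434089_at) read 7.57 and 7.93 in Dex+E2, 7.75 and 8.24 in E2, 6.78 and 6.87 in Dex, and 7.01 and 7.12 in Untreated cells, with both estradiol groups above both others and overlapping each other. Its differences were 0.93 ± 0.160 for E2 against Untreated and 0.92 ± 0.160 for Dex+E2 against Dex. The dimmer (1427045_at, percentile 35.3) read 4.87 and 4.95 in Dex+E2, 4.80 and 4.70 in E2, 4.75 and 4.87 in Dex, and 5.02 and 4.92 in Untreated cells. In it both E2 arrays lay below both Untreated arrays, by -0.21 ± 0.0916. The probe sets correlated at -0.29 over the 8 arrays, whereas those of Zfp52 correlated at 0.98, and which transcript ends they read was not tested.

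Midn, which hands nuclear proteins to the proteasome, followed the brighter Synpo probe set closely. It read 9.14 and 9.62 in Dex+E2, 9.30 and 9.75 in E2, 8.39 and 8.41 in Dex, and 8.58 and 8.62 in Untreated cells. The Dex+E2 and E2 arrays overlapped, and the Dex arrays lay below the Untreated arrays. E2 against Untreated was 0.93 ± 0.166 and Dex+E2 against Dex 0.98 ± 0.166.

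**Figure D1:**
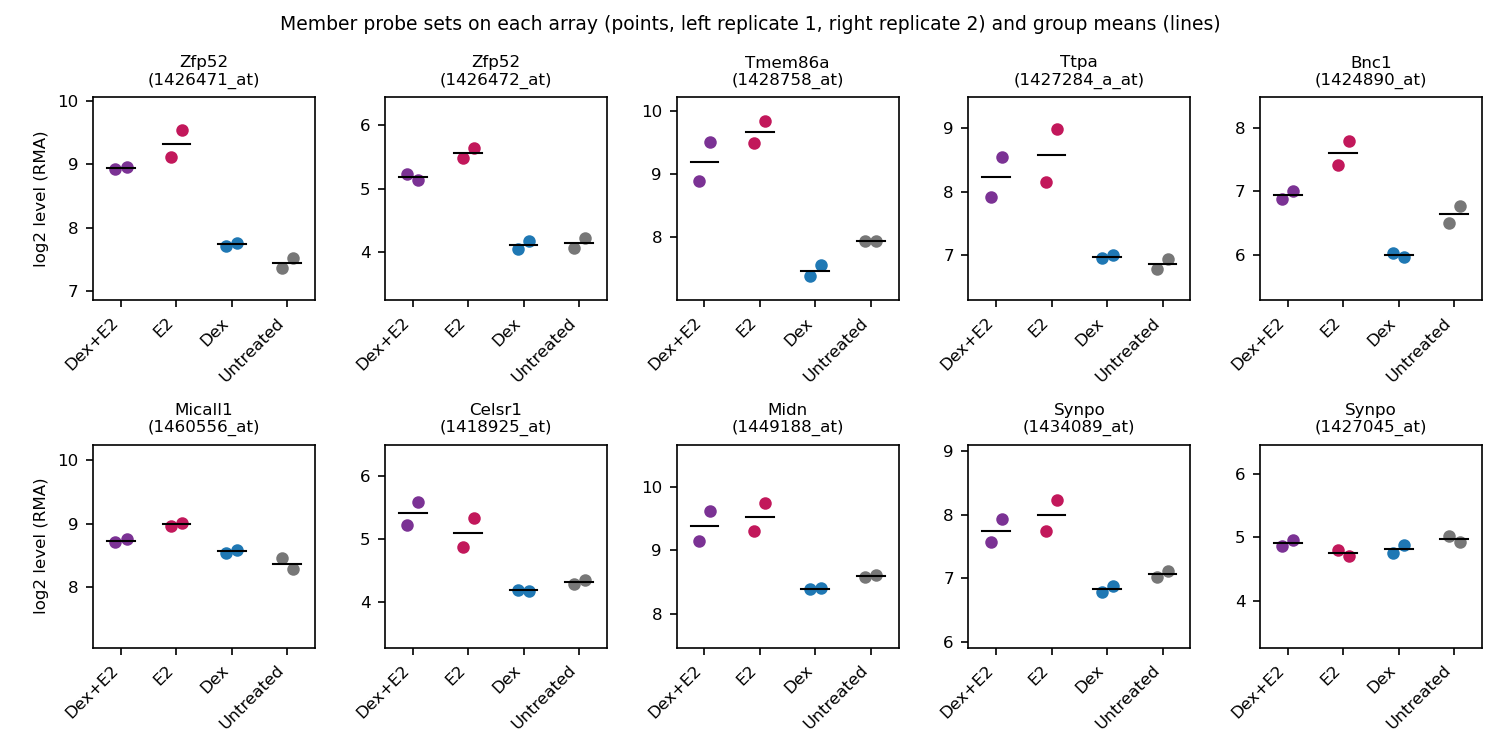
Log2 level of each of the 10 probe sets (vertical axes, each spanning 3.2 log2 units) on both arrays of each group (points) with the group mean (lines). In 9 probe sets the Dex+E2 and E2 points lie above all Dex and Untreated points, and the dimmer Synpo probe set is the exception.

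Across the members, 9 of 10 probe sets had all 4 estradiol arrays above all 4 arrays without it, a pattern found in 1.05% of all 45037 probe sets that are not controls. Likewise 9 had both E2 arrays above both Untreated arrays (16% of all) and 9 had both Dex+E2 arrays above both Dex arrays (15.2%). The rule selects for that pattern, so nothing is read from the contrast. The median over the 10 probe sets was 0.95 log2 units for E2 against Untreated and 1.03 for Dex+E2 against Dex, beside -0.01 and -0.0008 over all probe sets. In size of the mean E2 effect, 7 of the 8 were among the 10 highest genes, led by Tmem86a, Zfp52 and Ttpa, and Micall1 ranked 70.

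The interaction is the estradiol difference with Dex present minus that without it. In the limma fit over 18193 genes it passed the threshold for 0 of the 8 members (Benjamini-Hochberg adjusted p from 0.852 to 0.999). Of all genes 0.0055% passed. Of the 8 members, 2 were at an unadjusted p under 0.05. For Tmem86a, Bnc1, Midn and the brighter Synpo probe set, the interaction ran from -0.02 to 0.05 log2 units, with standard errors of 0.189 to 0.252. It was -0.67 ± 0.182 for Zfp52 (-0.35 ± 0.140 at its dimmer probe set), -0.45 ± 0.349 for Ttpa and -0.45 ± 0.129 for Micall1, in which Dex+E2 cells gained less over Dex cells than E2 cells over Untreated cells. For Celsr1 it was 0.43 ± 0.216, the other way. Leaving out 1 array moved the interaction widely, to between -0.89 and -0.46 for the brighter Zfp52 probe set, -0.87 and -0.03 for Ttpa, -0.55 and -0.36 for Micall1, and 0.20 and 0.66 for Celsr1. It took either sign for Tmem86a (-0.29 to 0.32), Bnc1 (-0.20 to 0.17), Midn (-0.19 to 0.29) and the brighter Synpo probe set (-0.25 to 0.24). The members were chosen on levels that also make up the interaction, so nothing is read from its p-values in them.

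**Figure D2:**
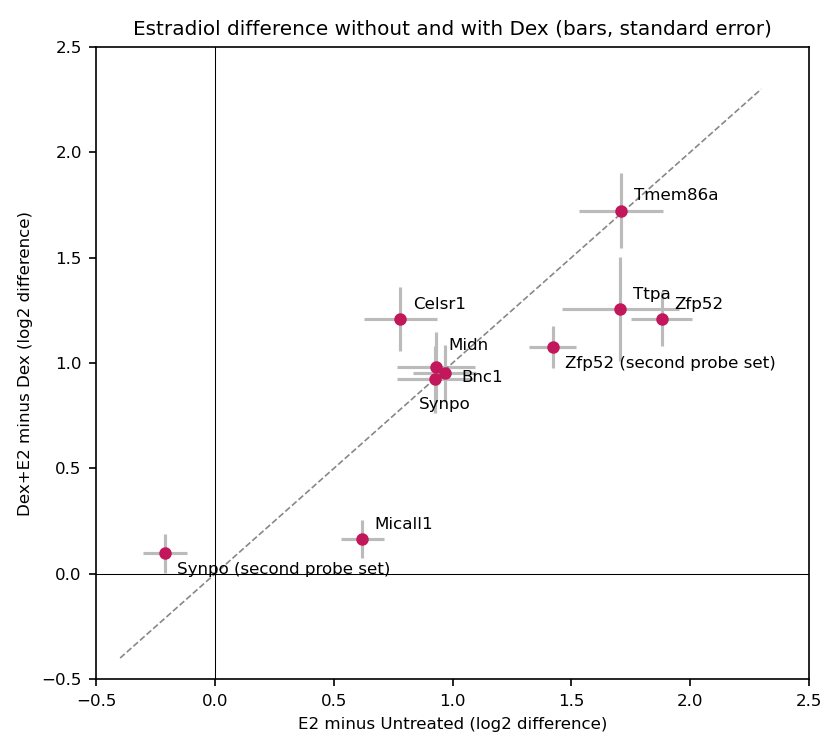
Log2 difference of Dex+E2 against Dex (vertical) plotted over that of E2 against Untreated (horizontal) for the 10 probe sets, with standard errors as bars and a dashed line of equal differences. Tmem86a, Bnc1, Midn and the brighter Synpo probe set sit on the line, Zfp52, Ttpa and Micall1 below it and Celsr1 above it.

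The 1 gene of 18193 that limma called for the interaction (0.0055%) was the clock gene Per1, higher with either hormone. It read 9.16 and 8.84 in Dex+E2, 8.62 and 8.50 in E2, 9.32 and 9.17 in Dex, and 6.72 and 6.45 in Untreated cells. Its E2 difference was 1.97 against Untreated but -0.24 for Dex+E2 against Dex (interaction -2.21, limma, Benjamini-Hochberg adjusted p = 0.00349). Greb1, a classical estrogen target, differed by 0.04 for E2 against Untreated (adjusted p = 0.979), and Fkbp5, a glucocorticoid target, by 0.16 (adjusted p = 0.881), in the same limma fit. Per1 showed no gain of Dex+E2 over Dex. Both Dex+E2 arrays lay above both Dex arrays in 9 of the 10 member probe sets (15.2% of all). The members were chosen on these arrays, so nothing is read from setting them against Per1.

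Dex on its own left most members at or below their Untreated level. The Dex arrays lay below the Untreated arrays in 6 of 10 probe sets (17.5% of all) and above them in 3 (17.2%), namely the brighter Zfp52 probe set, Ttpa and Micall1. The rule used this contrast. With estradiol present, Dex+E2 against E2 was below 0 in 8 of 10 probe sets, from -0.66 for Bnc1 to -0.14 for Midn, and above 0 for Celsr1, 0.30 ± 0.153, and the dimmer Synpo probe set, 0.15 ± 0.0916. Leaving out 1 array took that difference to 0.08 for Ttpa, 0.09 for Midn and 0.001 for the brighter Synpo probe set. Both E2 arrays lay above both Dex+E2 arrays in 4 probe sets (18.4% of all), those of Zfp52, Bnc1 and Micall1. The values of the brighter Zfp52 probe set and of Micall1 changed side: the Dex arrays lay above Untreated by 0.29 ± 0.129 and 0.20 ± 0.0914, while the Dex+E2 arrays lay below E2 by -0.38 ± 0.129 and -0.26 ± 0.0914. The dimmer Zfp52 probe set did not change side. The dimmer Synpo probe set turned the other way, from -0.16 ± 0.0916 for Dex against Untreated. Ttpa (0.11 ± 0.247 to -0.34 ± 0.247) and Celsr1 (-0.13 ± 0.153 to 0.30 ± 0.153) also changed sign, but their Dex+E2 and E2 arrays overlapped.

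**Figure D3:**
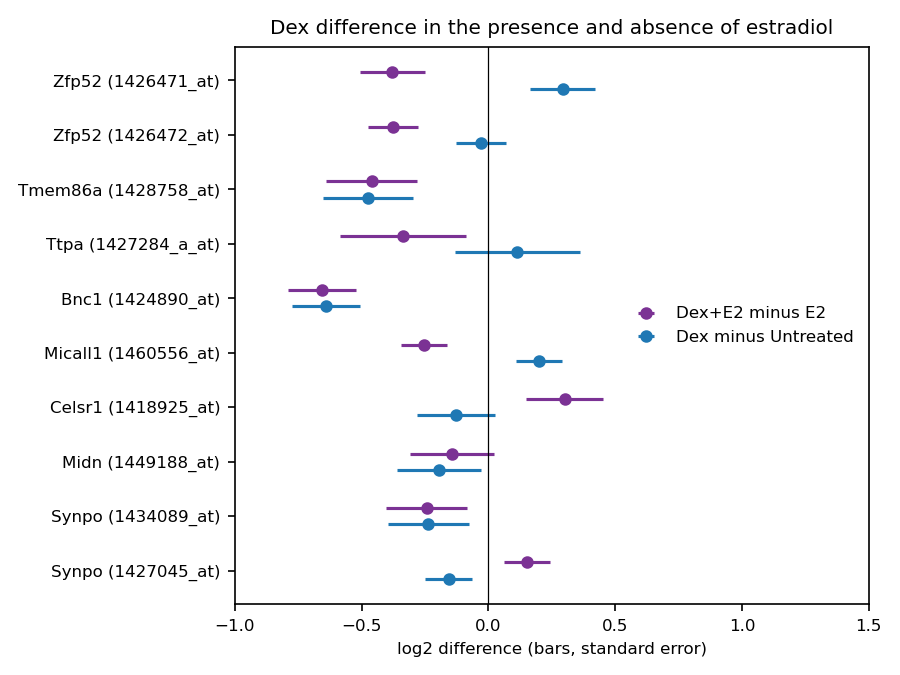
Log2 difference (horizontal, bars are standard errors) of Dex+E2 minus E2 and of Dex minus Untreated for each probe set (rows). Bnc1, Tmem86a, Midn, the brighter Synpo probe set and the dimmer Zfp52 probe set are negative in both. The brighter Zfp52 probe set, Ttpa, Micall1, Celsr1 and the dimmer Synpo probe set change side.

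At the members, replicates of the estradiol groups lay further apart than those without estradiol. In E2, replicate 2 was higher than replicate 1 in 9 of 10 probe sets, by a median of 0.40 log2 units, and in Dex+E2 in 9 of 10, by 0.25. Replicate 2 was also the higher one in 8 of 10 in Dex and 7 of 10 in Untreated cells, but by medians of 0.04 and 0.09. Over all probe sets replicate 2 was the higher one in 53.2% for Dex+E2, 48.4% for E2, 49.2% for Dex and 48.0% for Untreated. What moves with the gaps was not tested. Leaving out E2 replicate 2, the array with the ChIP description, gave an E2 difference from Untreated of 1.67 for the brighter Zfp52 probe set, 1.54 for Tmem86a, 0.78 for Bnc1, 0.55 for Celsr1, 0.71 for Midn and 0.68 for the brighter Synpo probe set. Leaving out each of the 8 arrays in turn kept the Dex+E2 difference from Dex between 1.19 and 1.23 for the brighter Zfp52 probe set, between 1.42 and 2.03 for Tmem86a, between 0.94 and 1.57 for Ttpa, between 0.89 and 1.02 for Bnc1, between 0.14 and 0.19 for Micall1, between 1.02 and 1.40 for Celsr1, between 0.74 and 1.22 for Midn and between 0.74 and 1.11 for the brighter Synpo probe set.

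Among themselves the lead probe sets correlated over the 8 arrays at a median Pearson r of 0.93, from 0.70 for Micall1 with Celsr1 to 0.99 for Midn with Synpo, over 28 pairs. These points share the arrays and the choice of members, so the values are a description. The 8 non-member genes most like their mean profile, by Pearson r over the 8 arrays among 456 genes whose group means span at least 0.5 log2 units, were Gse1 (r = 0.988), Wfs1 (0.987), Plekhg3 (0.969), Metrnl (0.955), Snrk (0.952), Kif5c (0.951), Eppk1 (0.945) and Vegfa (0.944). Wfs1, the wolframin gene of the endoplasmic reticulum, read 7.94 and 8.10 in Dex+E2, 8.07 and 8.37 in E2, 7.45 and 7.57 in Dex, and 7.64 and 7.58 in Untreated cells. Vegfa, the vascular growth factor gene, read 9.28 and 9.58 in Dex+E2, 9.56 and 9.76 in E2, 8.73 and 8.55 in Dex, and 9.08 and 9.02 in Untreated cells. Vegfa had its lowest group mean with Dex, as did Gse1, Wfs1 and Kif5c. So did the lead probe sets of Tmem86a, Bnc1, Celsr1, Midn and Synpo. Kif5c, a kinesin heavy chain gene, had the highest mean E2 effect of these 8 non-member genes, 1.16 ± 0.182.

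**Figure D4:**
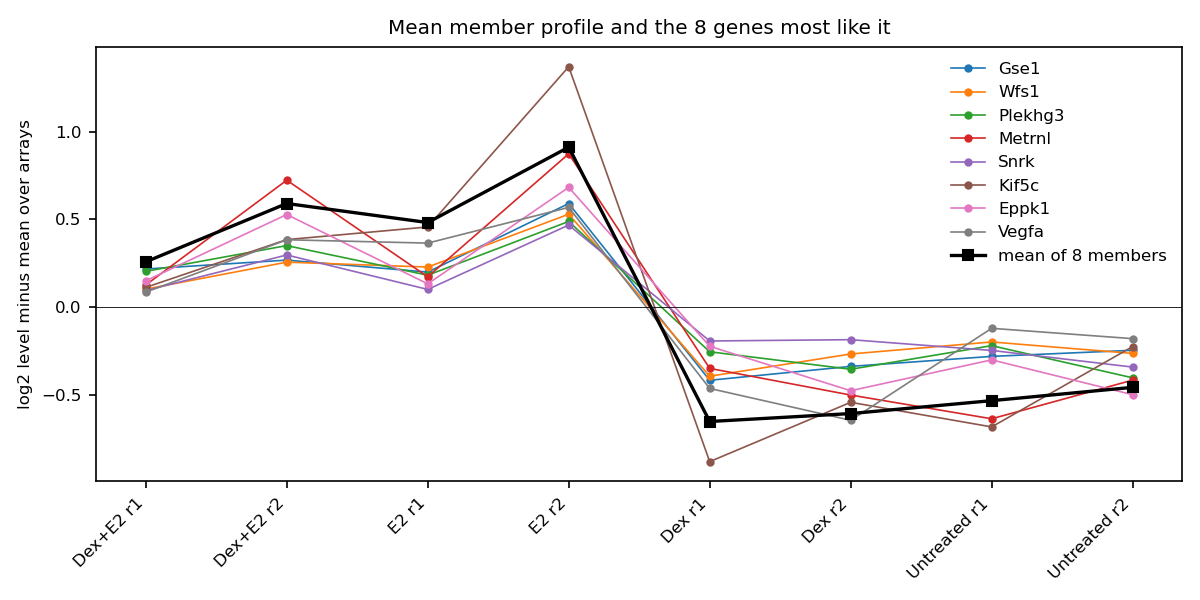
Log2 level minus the gene's mean over the 8 arrays (vertical) on each array (horizontal) for the mean of the 8 members (black squares) and the 8 most similar genes (coloured circles). The member mean is 0.59 on Dex+E2 replicate 2 and 0.91 on E2 replicate 2, and -0.65 on Dex replicate 1.

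Genes related to the members by family, pathway or chromosomal position were then tested. They were not used to choose the members. The lists were drawn up with earlier results of these data known, so these tests are not independent of the data. Of 153 measured related genes, 0 passed the threshold in limma for the mean E2 effect, for E2 against Untreated or for Dex+E2 against Dex. Of all genes, members included, 0.192%, 0.104% and 0.011% were called. The 2 genes called for Dex+E2 against Dex were both members, so that 0 was fixed for genes outside the set, here and in each list. In the same order, 12, 13 and 12 related genes were at an unadjusted p under 0.05. The share of all genes at that level is not given, so nothing is read from these counts or those of single lists. The median mean E2 effect of the related genes was 0.01, beside -0.0040 over all genes. With Dex, 1 of the 153 rose and 1 fell, beside 0.863% and 0.605% of all genes.

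Among 14 paralogs, Micall2, a relative of Micall1 that acts in junction recycling, had the highest mean E2 effect. It read 7.03 and 7.33 in Dex+E2, 7.53 and 7.70 in E2, 6.73 and 6.31 in Dex, and 7.24 and 7.43 in Untreated cells. Its mean E2 effect of 0.47 ± 0.105 did not pass (limma, Benjamini-Hochberg adjusted p = 0.232), and it fell by 0.81 ± 0.149 with Dex (adjusted p = 0.0215). The call was lost under the replicate block (adjusted p = 0.0548) and without Dex replicate 2 (0.238), Untreated replicate 1 (0.0957) or Untreated replicate 2 (0.278). Tmem86b, the other enzyme of the Tmem86 pair, read 5.09 and 5.16 in Dex+E2, 5.01 and 4.95 in E2, 4.98 and 4.92 in Dex, and 5.16 and 5.14 in Untreated cells. These values lack the pattern of Tmem86a, but the probe set is dim, at percentile 28.2 of gene level, where this normalization compresses differences.

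The lists drawn around each member's function held no gene past the threshold with estradiol. So few of all genes were called that nothing is read from this. Of 12 ether lipid genes, 13 genes of vitamin E and lipid uptake, 11 basal epithelial genes, 13 recycling endosome genes, 16 planar polarity genes and 10 actin partners of synaptopodin, 0 passed in any of the 3 estradiol comparisons (limma), with 1, 0, 2, 1, 0 and 1 at an unadjusted p under 0.05 for the mean E2 effect. Their median mean E2 effects were 0.01, -0.02, 0.02, 0.03, -0.05 and 0.06, in that order. The smallest p-values in these lists belonged to Tmem189, a plasmalogen-forming desaturase gene, at 0.16 (adjusted p = 0.993), the lipoprotein lipase gene Lpl at -0.12 (0.993), the keratin gene Krt17 at 0.19 (0.899), the endosome ATPase gene Ehd4 at 0.30 (0.355), the Wnt signal protein gene Dvl1 at -0.11 (0.993) and the actinin gene Actn2 at 0.24 (0.491). Of the 6 genes whose proteins midnolin is known to degrade, Neurod1 (percentile 9.24), Fosb (17.5), Egr1 (26.2) and Irf4 (28.4) were dim. Fos (47.8) and Nr4a1 (55.5) were near the middle. Of these 6, 0 passed in limma with estradiol. For the mean E2 effect 1 was at an unadjusted p under 0.05, Nr4a1 (0.16, adjusted p = 0.993), and for E2 against Untreated 1, Fos (0.74 ± 0.213, adjusted p = 0.519), whose interaction was -1.0 (adjusted p = 0.852). For Dex+E2 against Dex, 0 were. Fos rose by 1.20 ± 0.213 with Dex (limma, adjusted p = 0.0172), a call lost without Dex replicate 1 (0.0681), Dex replicate 2 (0.236), Untreated replicate 1 (0.168) or Untreated replicate 2 (0.170).

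**Figure D5:**
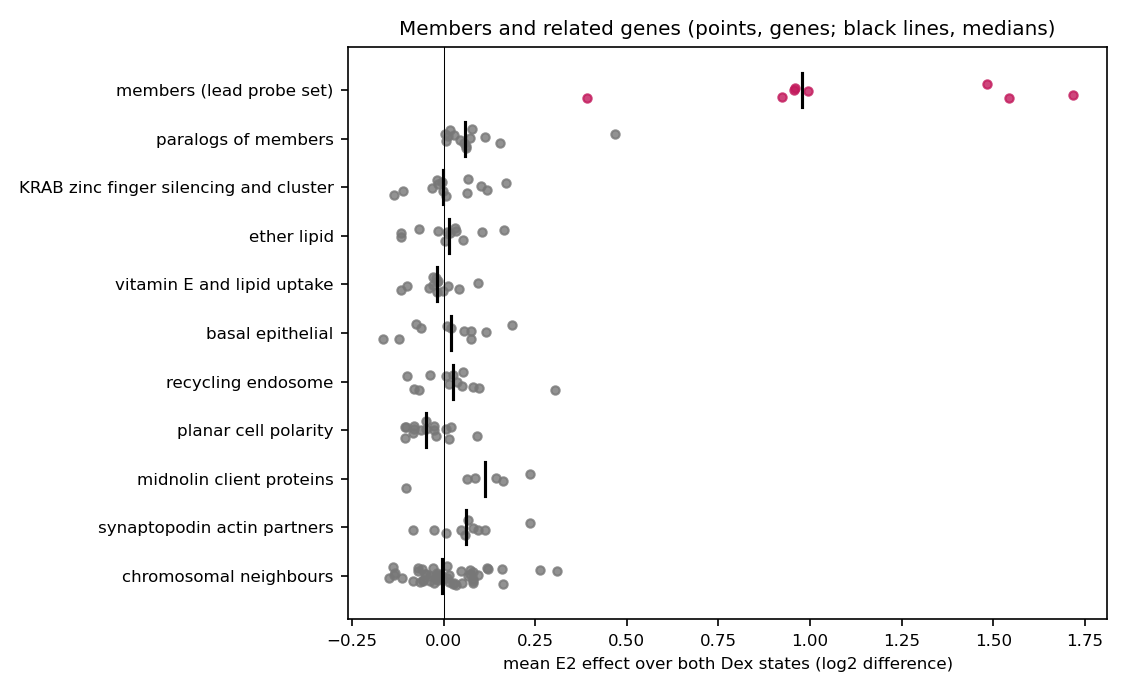
Mean E2 effect over both Dex states (horizontal, log2 difference) of the members' lead probe sets and of each related gene, with list medians as black lines. The related genes lie between -0.17 and 0.47, and the members between 0.39 and 1.72, a range the choice of members fixes.

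No chromosomal neighbour passed the threshold with estradiol. Of all genes 0.192% passed for the mean E2 effect, 0.104% for E2 against Untreated and 0.011% for Dex+E2 against Dex. With shares this low nothing is read from the lack of calls. Zfp52 lies at chr17:21533725-21563362 (GRCm38.p6) among other zinc finger genes, and of its 6 nearest measured neighbours 0 passed in limma. Their median was 0.29 (from 0.008 to 0.63) for E2 against Untreated, beside -0.01 over all genes. For Dex+E2 against Dex it was -0.24 (from -0.36 to -0.008), beside -0.0003. Zfp948, the nearest measured gene on one side, read 8.76 and 8.53 in Dex+E2, 8.95 and 9.36 in E2, 8.54 and 8.76 in Dex, and 8.36 and 8.69 in Untreated cells. Its difference was 0.63 ± 0.156 for E2 against Untreated (adjusted p = 0.356) but -0.01 ± 0.156 for Dex+E2 against Dex (0.999). Zinc finger genes of this cluster have close copies, so their probe sets may share signal. Next to Tmem86a, which lies at chr7:47050640-47054776, Spty2d1 had a mean E2 effect of 0.26 ± 0.0714 (adjusted p = 0.432). Around the remaining members, the neighbour with the smallest p was Tstd3 for Ttpa (0.16), Adamtsl3 for Bnc1 (0.08), Ankrd54 for Micall1 (-0.13), Cerk for Celsr1 (0.09), Cbarp for Midn (-0.15) and Tcof1 for Synpo (-0.07), with limma adjusted p from 0.938 to 0.993. Of 13 genes of KRAB silencing and the Zfp52 cluster, 0 passed, and Atrx had the smallest p (mean E2 effect 0.17 ± 0.0939, adjusted p = 0.993).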

How the data were processed

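Expression was measured on 8 Affymetrix mouse arrays, 2 in each of 4 groups, assigned from the titles. The deposited log2 values were made by the authors with RMA in Affymetrix Expression Console, per the submitters' processing notes, with the version not given in the sources used here. RMA equalises the arrays and compresses differences of dim probe sets. The number of arrays limits the precision.

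Symbols came from the platform annotation (34958 probe sets with 1 symbol, 932 with several, 9211 with none listed). The 64 control probe sets were left out. Members were read at every probe set. Other genes were read at the probe set with the highest mean (18193 genes). A linear model of the 4 groups over the 8 arrays was fitted with limma (version 3.58.1, R 4.3.3; 4 residual and 6.20 prior degrees of freedom). P-values were Benjamini-Hochberg adjusted over all genes, with a threshold of 0.05. The mean E2 effect averages E2 against Untreated and Dex+E2 against Dex. The fit was tested on simulated data. Related genes named are those past the threshold, else the smallest p in a list. The like genes are the 8 with the highest r, and Per1, Greb1 and Fkbp5 were always given. Members and lists were chosen with earlier results of these data known. Alternatives were other summaries of probe sets, a filter on dim genes, a trended prior, fits on the compared groups, the replicate block and leaving out each array.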

Additional observations from a re-analysis of the deposited data

Results flagged for a closer look

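In 3 probe sets every array moved one way with Dex in the absence of estradiol and the opposite way in its presence. For the brighter Zfp52 probe set and for Micall1, both Dex arrays lay above both Untreated arrays while both Dex+E2 arrays lay below both E2 arrays, a difference between the 2 Dex effects of -0.67 and -0.45 log2 units, and 2.26% of all probe sets show that pattern. For the dimmer Synpo probe set the directions were turned, with a difference of 0.31, as in 2.71% of all probe sets. In the limma fit over all probe sets none of the 3 differences passed the threshold, with a Benjamini-Hochberg adjusted p of 0.881 for each. All 3 were under 0.05 unadjusted in that fit, but they were picked for this pattern, so nothing is read from it. The choice of members used the same arrays.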

How the results depend on the processing

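Over all genes, the count called for the mean E2 effect was 35, and 23 with every probe set tested separately and 63 with a trended and robust prior. That prior gave 35 for E2 against Untreated (19 as reported) and 9 for Dex+E2 against Dex (2 as reported, 1 with only the compared arrays). Leaving out each array gave 2 to 90 for the mean E2 effect, the ends without Dex replicate 2 and without Dex+E2 replicate 1. Of the other 6, leaving out E2 replicate 1 (58), E2 replicate 2 (13), Dex replicate 1 (5), Untreated replicate 1 (5) or Untreated replicate 2 (3) also moved it by over 1.5 times. For E2 against Untreated it was 37 without E2 replicate 1, 34 without either Dex+E2 array, 11 without either Dex array, 3 without Untreated replicate 1 and 2 without E2 replicate 2 or Untreated replicate 2. For Dex+E2 against Dex it was 81 without Dex+E2 replicate 1, 1 without Dex+E2 replicate 2, 4 without either E2 array and 0 without any single Dex or Untreated array. For Dex against Untreated (267 as reported) it ran from 131 to 325, with 131 and 157 without Dex replicates 1 and 2 and 156 and 144 without Untreated replicates 1 and 2. The related genes held 0 calls for the mean E2 effect under each setting run. The members' median E2 difference from Untreated, 0.95, was 0.74 without E2 replicate 2 and 1.16 without E2 replicate 1. Of 50 member values of E2 against Untreated under other settings, 12 moved by more than the spread between replicates and 0 changed sign. With 1 array left out, Dex+E2 against E2 changed sign for Ttpa, Midn and the brighter Synpo probe set, and the interaction for Tmem86a, Bnc1, Midn and that Synpo probe set.

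Same-numbered arrays deviated together by over 0.1 in 3 of 6 pairs of groups. These were E2 with Dex (correlation 0.27), E2 with Untreated (0.35) and Dex with Untreated (0.19). The pairs with Dex+E2 ran from -0.26 to -0.07. The numbers were not taken to pair the samples, and what they mark was not tested. With the replicate block, 31 genes were called for the mean E2 effect, 17 for E2 against Untreated, 3 for Dex+E2 against Dex and 265 for Dex against Untreated, and Micall2 lost its Dex call (adjusted p = 0.0548).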
